A study of Arabidopsis thaliana with 36 samples.

Results

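Rosettes and roots of wild-type Arabidopsis thaliana of the accession Col-0 were compared, in 3 rosette libraries (labelled Shoot) and 3 root libraries out of the 36 RNA-seq libraries of the series. The members were taken by their labels of genotype and tissue, and 21554 of the 34218 features in the table had enough counts to be tested. The plants carried no mutation, transgene or added agent, were 42 days old, and had grown in sand on 5 mM nitrate, which the labels call non-limiting, in days of 8 h light at 21 °C and nights of 16 h at 18 °C. Each sample is the RNA of a whole organ from 1 of 3 biological replicates, and the number of plants behind a replicate is not given in the sources used here. A second wild type, Col-4, was grown in the same way and gave 3 rosette and 3 root libraries that the Col-0 comparison does not hold. The sample titles alone tell Col-4 from Col-0, since their ecotype labels do not differ, and the comparison of both wild types rests on those titles. The other 24 libraries come from plants with disrupted NLP2 or NLP7 genes or both. They enter here through the count filter, the scaling and the shared estimate of the spread, and in a count of genes over all genotypes.

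A rosette and a root divide the work of a plant. The rosette takes up carbon dioxide through stomata, fixes it in chloroplasts with light energy, and exports sucrose through the phloem. The root takes up water and mineral ions through its epidermis and root hairs, passes them across the endodermis, whose Casparian strip and suberin seal the wall space, and loads them into the xylem. Nitrate can be reduced and built into amino acids in either organ, with electrons from photosynthesis in green plastids and from the oxidative pentose phosphate pathway in plastids that are not green. At ample nitrate this comparison shows the starting distribution of those genes between the organs.

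The 6 libraries held 1.82e+07 to 2.87e+07 counted fragments. Counts were more concentrated in shoots, where the leading 10 genes made up 8.93 to 9.41% of a library against 3.43 to 3.53% in roots, and 50% of the counts came from 618 to 663 genes in shoots and from 1514 to 1538 in roots. NLP2 and NLP7, the genes disrupted elsewhere in the series, were present in every Col-0 library. Levels are given as FPKM (fragments per kilobase of gene and per 1e+06 fragments of the library, as deposited) divided by the TMM factor of the library, so that they can be compared between genes per length and between libraries. Fold changes are log2 values of shoots over roots on the same TMM scale, and a positive value means higher in shoots. Each is given with an approximate standard error from the edgeR fit (n = 3 libraries in each organ). For a gene with few counts in an organ this error can fall below counting error. MLP34, with 1 count over the shoot libraries, had 0.39, while the exact counting interval of its ratio ran from 8780 to 1930000. The ± of a gene near 0 in an organ may therefore understate its uncertainty. The TMM scale assumes that most genes keep their level between the organs. Scaling by library totals, which the deposited FPKM use, moved the median log2 value of all genes by -0.72, and it moved the share of called genes that were higher in shoots from 46.4 to 24.3%. Log2 values just above 0 therefore change their sign with the scale, and the value on library totals is given beside the genes named below to which this applies. In the same way CER4, PHV, STM, NLP3, RAP2.3, PAD4 and BT1, which did not pass the test on the TMM scale, were called lower in shoots on library totals.

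A gene was called at a Benjamini-Hochberg adjusted p under 0.05 over the 21554 features tested (edgeR quasi-likelihood test), and called beyond 2-fold where glmTreat placed its log2 change beyond 1 at the same limit. By the first rule 16898 genes (78.4%) differed between Col-0 shoots and roots, 7848 (36.4%) higher and 9050 (42%) lower in shoots. By the second 8773 genes (40.7%) differed, 4230 (19.6%) higher in shoots and 4543 (21.1%) higher in roots, and those 2 shares are the background for the gene lists below. On library totals 3209 genes (14.9%) were beyond 2-fold higher in shoots and 7659 (35.5%) in roots. Of the genes beyond 2-fold on the TMM scale, 3209 of those higher in shoots and 4543 of those higher in roots were also called so on library totals. Over 32-fold differences numbered 1214 toward shoots and 1335 toward roots. Of genes listed at 0 in an organ, 127 genes had at least 100 counts in each shoot library and 0 in each root library, and 298 had at least 100 counts in each root library and 0 in each shoot library. This limit is in raw counts, and on the TMM scale it is a lower level in roots (factors 1.25 to 1.31) than in shoots (0.774 to 0.787). These numbers of genes are therefore not directly comparable. In whole organs, fewer cells of a type and less RNA per cell cannot be told apart.

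Genes of the light reactions set the shoot apart most evenly. All 35 genes listed for photosystems and light-harvesting antennae were beyond 2-fold higher in shoots, with log2 fold changes from 9.03 to 16.1 and a median of 10.41, against -0.08 over all genes tested. Together they took 12 to 12.9% of the counts of a shoot library and 0.0118 to 0.0285% of a root library. LHCB1.3, an antenna protein of photosystem II and the most abundant of the genes with a symbol that were beyond 2-fold higher in shoots, stood at 21500, 20600 and 20200 in the shoot libraries and 12.9, 27.6 and 48.5 in the root libraries. PSBS, which sheds excess light energy at photosystem II, stood at 2490, 2450 and 2210 in shoots and 0.0262, 0.0916 and 0.0286 in roots. PETE1, a plastocyanin of the electron chain, stood at 283, 248 and 245 in shoots and 0.226, 0.132 and 0.329 in roots. In each of these the organs were orders of magnitude apart, and root replicate 1 held the least of the summed list and replicate 3 the most. LHCB1.1, LHCB1.2 and LHCB1.3 are near-identical copies, so the split of their counts among them is uncertain.

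Carbon fixation followed the same division. All 18 Calvin cycle genes were beyond 2-fold higher in shoots (median log2 13.37), and together they held 6.53 to 6.77% of shoot counts. RBCS1A, a small subunit of Rubisco, stood at 19500, 19400 and 18500 in shoots and 0.556, 1.22 and 3.94 in roots, and RCA, which activates Rubisco, at 9060, 8880 and 8860 and 3.04, 2.89 and 3.8. RBCS2B, another small subunit, stood at 3720, 3610 and 3540 in shoots and was listed at 0 in each of the 3 libraries of roots, which makes it at least 89100-fold higher in shoots against a floor of 3 counts over the 3 root libraries. The small subunit genes are close copies of one another and their split is uncertain. The smallest difference in the list was that of the transketolase TKL1, at 841 ± 33 (SD, n = 3) in shoots and 370 ± 18 in roots (log2 1.19 ± 0.07), which also serves the pentose phosphate pathway. It lost its call beyond 2-fold on library totals (log2 0.47).

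Photorespiration, which recovers the product of oxygen fixation by Rubisco, was higher in shoots in 11 of the 12 genes tested. HPR1, a peroxisomal hydroxypyruvate reductase, stood at 909, 910 and 937 in shoots and 0.0475, 0.0277 and 0.0259 in roots, and the mitochondrial serine hydroxymethyltransferase SHM1 at 1540 ± 68 and 12.6 ± 1.4 (log2 6.93 ± 0.1). The 12th gene ran the other way: GOX3, a member of the glycolate oxidase family, stood at 0.575, 0.574 and 0.626 in shoots and 27.5, 25 and 26.5 in roots (log2 -5.48 ± 0.19), while GOX1 stood at 1650 ± 17 in shoots and 0.0674 ± 0.015 in roots. The phosphoglycolate phosphatase gene PGLP1 was near 0 in both organs (0.142, 0.2 and 0.0882 in shoots, 0 in each of the 3 libraries in roots) and was not tested, and its counts are uncertain because the genome holds a near-identical copy.

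Of 18 genes of chlorophyll synthesis and its regulators, 16 were beyond 2-fold higher in shoots. CHLH, a subunit of magnesium chelatase, stood at 1180 ± 59 in shoots and 1.38 ± 0.41 in roots (log2 9.75 ± 0.19), and the greening regulator GLK1 at 495 ± 43 and 0.476 ± 0.15 (log2 10.02 ± 0.15). GNC, a GATA factor that promotes greening, stood at 37, 34.9 and 33 in shoots and was listed at 0 in each of the 3 libraries of roots (at least 1650-fold higher). The exceptions were HEMA2, a glutamyl-tRNA reductase whose tetrapyrroles also serve haem (log2 -0.49 ± 0.12), and the light signalling factor HY5 (log2 -0.57 ± 0.15), both called lower in shoots, and beyond 2-fold on library totals but not on the TMM scale.

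**Figure D1:**
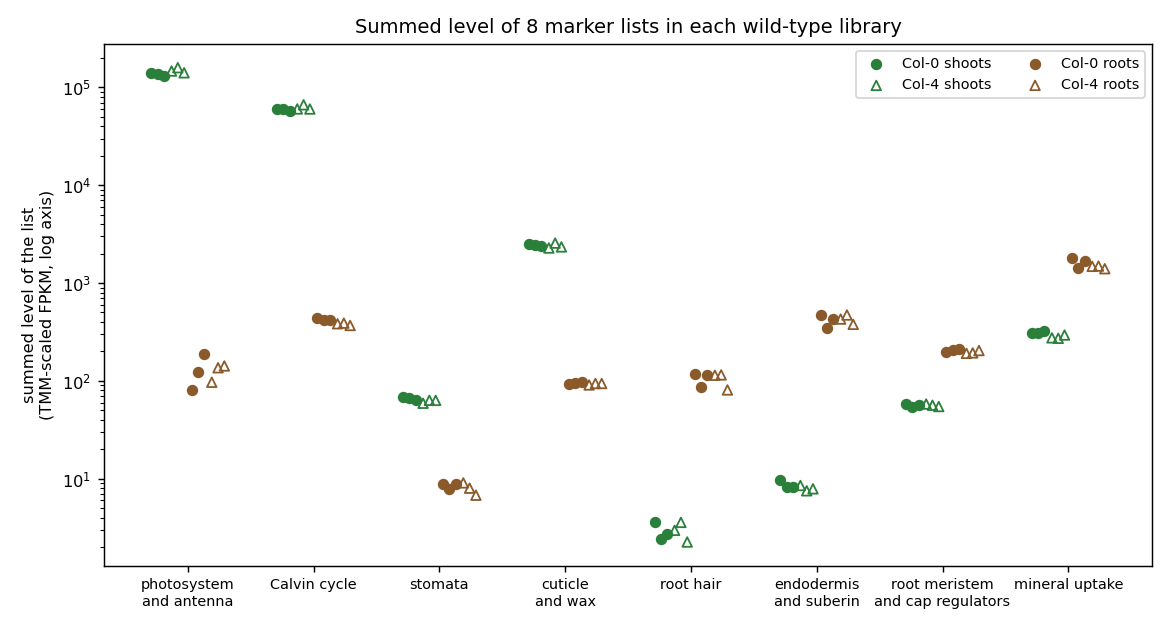
Summed level of 8 marker lists in each Col-0 and Col-4 library (TMM-scaled FPKM on a log axis). Green marks are shoots and brown marks roots, filled circles are Col-0 and open triangles Col-4. The organs do not overlap in any of the 8 lists, and the summed photosystem level of the Col-0 roots runs from 80 to 188 against 130000 to 142000 in shoots.

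The markers of leaf and root cells matched the labelled organs, as the plot of summed marker levels shows. Of 12 genes of stomata, the pores of the leaf surface, 11 were beyond 2-fold higher in shoots. FAMA, which sets guard cell identity, stood at 11.8, 11.4 and 10.3 in shoots and was listed at 0 in each of the 3 libraries of roots (at least 613-fold higher). TMM, a receptor-like protein of stomatal spacing, stood at 7.54, 7.67 and 6.61 in shoots and 0.0772, 0.112 and 0.063 in roots (log2 6.4 ± 0.28), and the guard cell potassium channel KAT1 at 10.9, 10.3 and 11.4 and 0.0585, 0.0272 and 0.0255 (log2 8.1 ± 0.33). The kinase OST1, which also acts in abscisic acid signalling outside guard cells, was close between the organs, at 11.6 ± 0.34 in shoots and 8 ± 0.49 in roots, and its log2 value of 0.53 ± 0.11 turned to -0.19 on library totals.

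Wax and cutin genes cover the aerial surface, and 10 of 14 tested were beyond 2-fold higher in shoots, none lower. The lipid transfer protein gene LTP1 stood at 1630, 1620 and 1550 in shoots and 5.56, 3.56 and 4.86 in roots (log2 8.41 ± 0.13). CER1, which makes wax alkanes, stood at 86.9 ± 14 and 0.201 ± 0.091 (log2 8.77 ± 0.21), and KCS6, which extends wax fatty acids, at 271 ± 16 and 1.28 ± 0.37 (log2 7.73 ± 0.14). CER4, a fatty acyl reductase, did not pass the test (log2 -0.37 ± 0.22, adjusted p = 0.121).

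Of 19 regulators of leaves and the shoot meristem 10 were beyond 2-fold higher in shoots and 1 in roots, and on library totals 8 and 3. The 4 YABBY genes, which mark the lower side of leaves, were beyond 2-fold higher in shoots, with YAB3 at 30.7, 30.5 and 34 in shoots and 0.0248, 0 and 0 in roots, and YAB1 at 29.3, 28 and 22.3 in shoots and 0 in each of the 3 libraries of roots (at least 704-fold higher). TCP10, TCP4 and TCP2, which limit leaf cell division, had log2 values of 5.14 ± 0.12, 2.39 ± 0.11 and 1.97 ± 0.07, and their relative TCP3, with few counts, did not pass (0.77 ± 0.41, adjusted p = 0.086). The homeodomain genes of the upper side did not share this: PHB (log2 -0.7 ± 0.06) and REV (-0.7 ± 0.06), which also pattern vascular tissue, were called lower in shoots, and PHV stood at 13.4 ± 1.1 and 15 ± 0.89 (adjusted p = 0.0966). The KNOX gene KNAT1, known from stem and meristem tissue, went against the list, at 3.86, 1.7 and 2.47 in shoots and 18, 16.5 and 18.9 in roots (log2 -2.71 ± 0.22). STM, the shoot meristem KNOX gene, stood at 4.78, 2.23 and 2.83 in shoots and 3.73, 4.32 and 6.03 in roots, values that overlapped.

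Root-specific cell types stood out as sharply in the other direction. Of 11 root hair genes 10 were beyond 2-fold higher in roots, with a median log2 of -9.63, or -7.37 with the 6 genes at 0 in shoots set to their bound. RHD6, which starts root hair fate, was listed at 0 in each of the 3 libraries of shoots and stood at 7.63, 5.27 and 9.82 in roots (at least 201-fold higher). The wall gene EXPA7 was listed at 0 in each of the 3 libraries of shoots and at 16.4, 11.3 and 14.9 in roots (at least 296-fold higher). RBOHC, the oxidase that drives tip growth, stood at 0.205, 0.112 and 0.128 in shoots and 22.6, 19.7 and 21.9 in roots (log2 -7.11 ± 0.2). CPC, which patterns hairs of both root and leaf epidermis, was the exception, at 2.66 ± 0.57 in shoots and 4.81 ± 0.67 in roots (log2 -0.84 ± 0.27, called but not beyond 2-fold).

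Genes of the endodermis and of suberin were beyond 2-fold higher in roots in 15 of 17 cases. CASP1, a scaffold of the Casparian strip, stood at 0.249, 0.175 and 0 in shoots and 99.7, 59.9 and 84.5 in roots (log2 -8.94 ± 0.4), and the suberin hydroxylase CYP86A1 at 0.386, 0.34 and 0 and 69.5, 57.7 and 64.3 (log2 -7.87 ± 0.28). In each gene the organs were far apart and the spread between the root libraries was small beside the difference. KCS2 (log2 -0.02 ± 0.26, adjusted p = 0.949) and ESB1 (-0.4 ± 0.56, adjusted p = 0.523) did not pass. Another annotated gene overlaps 74.5% of the length of KCS2 and 84.6% of that of ESB1, and the part of this in their counts was not tested. ESB1 held 1 to 7 counts in a shoot library and 4 to 11 in a root library.

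Of 13 regulators of the root meristem and cap, 11 were beyond 2-fold higher in roots. The stem cell regulator PLT1 was listed at 0 in each of the 3 libraries of shoots and stood at 2.42, 4.46 and 2.71 in roots (at least 138-fold higher), and the root cap factor SMB stood at 0.0272, 0.0319 and 0 and 2.39, 3.4 and 3.62. The auxin exporter PIN2, which acts in the outer root tissues, stood at 0.0312, 0.0733 and 0 in shoots and 29.3, 35.2 and 34.9 in roots (log2 -9.72 ± 0.27). The endodermal pair SHR and SCR, which also acts in leaves, was an exception: SHR was called lower in shoots (log2 -1.13 ± 0.09) but not beyond 2-fold, and SCR was called higher (log2 0.61 ± 0.08, -0.11 on library totals).

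**Figure D2:**
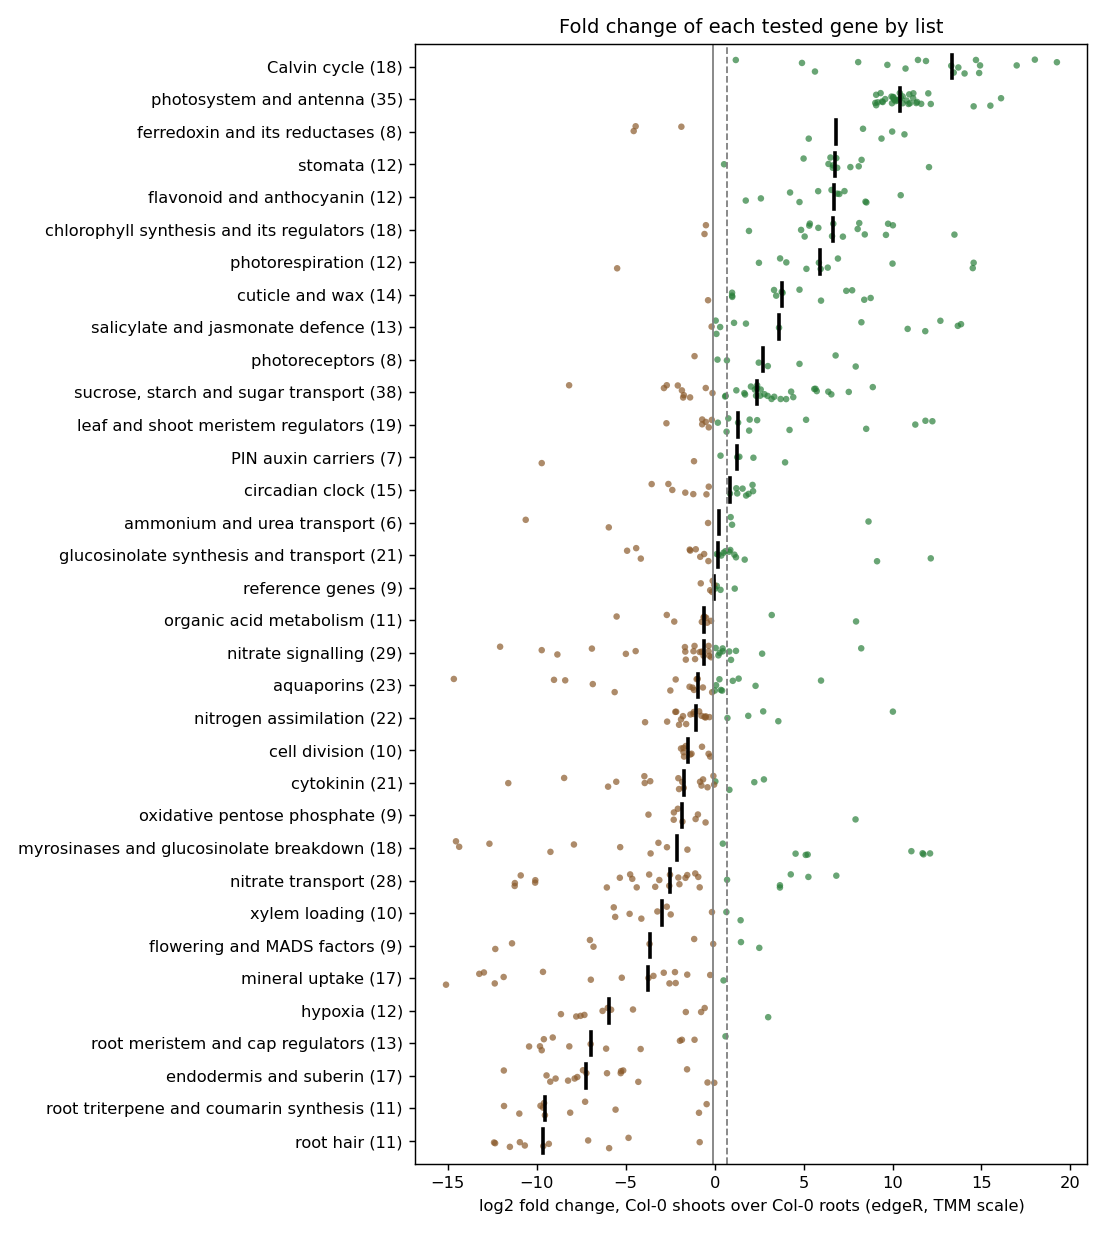
Log2 fold change of each tested gene (dots) between Col-0 shoots and roots by gene list, with the number tested in brackets and the list's median as a black bar. Green dots are higher and brown dots lower in shoots, the solid grey line is the median of all genes tested (-0.08) and the dashed line is where 0 would lie on library totals. Photosynthesis lists lie to the right, root hair and endodermis lists to the left, and the nitrogen lists spread across both sides.

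Genes of mineral uptake were higher in roots. Of 17 uptake genes 15 were beyond 2-fold higher in roots and none higher in shoots. IRT1, the iron carrier of the root surface, was listed at 0 in each of the 3 libraries of shoots and stood at 214, 124 and 172 in roots (at least 3600-fold higher). The ferric reductase FRO2 stood at 1.39, 2.62 and 1.45 and 84.7, 51.3 and 68.5 (log2 -5.22 ± 0.34), and the sulfate carrier SULTR1;2 at 0.573, 1.13 and 0.841 and 115, 82.7 and 116 (log2 -6.96 ± 0.23). The phosphate carrier PHT1;1 stood at 0.0447, 0.0787 and 0.0348 in shoots and 230, 165 and 236 in roots, although it shares reads with its near-identical neighbour PHT1;2. The proton pump AHA2, which powers uptake, stood at 81.8 ± 3.1 in shoots and 596 ± 33 in roots (log2 -2.86 ± 0.08), while its paralog AHA1 stood at 188 ± 4.7 and 224 ± 8.9 (-0.25 ± 0.05). Root replicate 2 had the lowest summed level of the uptake, root hair, endodermis and nitrate transport lists among the 3 root libraries, at 1440 against 1790 and 1690 for mineral uptake, and it remained far above the shoot libraries (305 to 324).

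Genes that move ions into or out of the xylem were higher in roots in 7 of 10 cases. PHO1, which exports phosphate to the xylem, stood at 10.9, 11.9 and 10.1 in shoots and 208, 167 and 199 in roots (log2 -4.12 ± 0.15), the potassium channel SKOR at 0.469, 0.551 and 0.526 and 15.6, 14.1 and 12.8 (-4.78 ± 0.22), and HKT1, which retrieves sodium, at 1, 0.958 and 0.762 and 51, 42.5 and 48 (-5.67 ± 0.17). The sulfate carrier SULTR2;1 of vascular tissue was beyond 2-fold higher in shoots (log2 1.46 ± 0.1), a call lost on library totals (0.74). The zinc pump HMA2 was called higher in shoots at log2 0.66 ± 0.17, which became -0.06 on library totals, while its relative HMA4 was lower (-2.47 ± 0.08).

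Nitrate transport genes lay on both sides, 18 of 28 tested beyond 2-fold higher in roots and 5 higher in shoots (median log2 -2.53). NRT2.1, the main high-affinity uptake carrier, stood at 0.213, 0.225 and 0.133 in shoots and 552, 391 and 488 in roots (log2 -11.23 ± 0.31). Its partner protein NRT3.1 stood at 12.1, 12.5 and 13.3 and 390, 264 and 366 (log2 -4.75 ± 0.15), so that a low level was present in leaves. NPF6.3/NRT1.1, the dual-affinity carrier and nitrate sensor, was less uneven, at 88.8, 82.2 and 93.3 in shoots and 308, 246 and 269 in roots (log2 -1.64 ± 0.09). The xylem loader of nitrate, NPF7.3/NRT1.5, stood at 17.3, 20.7 and 20.3 and 130, 93.4 and 118 (log2 -2.55 ± 0.12). In none of these 4 did a shoot library reach a root library.

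The root also led in the anion channel SLAH1, listed at 0 in each of the 3 libraries of shoots and at 8.23, 5.59 and 7.16 in roots (at least 195-fold higher), in the nitrate excretion carrier NPF2.7/NAXT1 (log2 -3.68 ± 0.2) and in NPF7.2/NRT1.8, which takes nitrate back out of the xylem (-5.33 ± 0.32). NRT2.4, a high-affinity carrier known from nitrogen-starved plants, was listed at 0 in each of the 3 libraries of shoots and at 3.56, 2.95 and 3.88 in roots. NRT2.2, at 3.35, 3.27 and 3.74 in roots, is a close copy of NRT2.1 and its counts are uncertain. CLC-A, the vacuolar nitrate exchanger, was called lower in shoots but not beyond 2-fold (-0.84 ± 0.11).

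On the shoot side 5 genes were beyond 2-fold higher. NRT2.7, a vacuolar nitrate carrier best known from seeds, stood at 25.1, 25.5 and 27.8 in shoots and 1.82, 2.17 and 2.17 in roots (log2 3.67 ± 0.12). NPF6.2/NRT1.4, which regulates nitrate content of the petiole, stood at 126, 138 and 140 and 9.31, 11.2 and 11.2 (log2 3.67 ± 0.11). NPF2.13/NRT1.7 and NPF1.2, which move nitrate from older to younger leaves through the phloem, had log2 values of 4.28 ± 0.17 and 5.27 ± 0.12. NPF1.1/NRT1.12, a relative of NPF1.2, went the other way, with 153 to 234 raw counts in a shoot library and 450 to 616 in a root library. SLAC1, the guard cell anion channel, stood at 0.957, 1.46 and 0.893 in shoots and 0, 0 and 0.0205 in roots, with 1 count in all root libraries and a ratio of 165-fold (exact 95% counting interval 28.9 to 6550). Its relative SLAH3 was called higher in shoots at log2 0.7 ± 0.18, which became -0.01 on library totals.

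**Figure D3:**
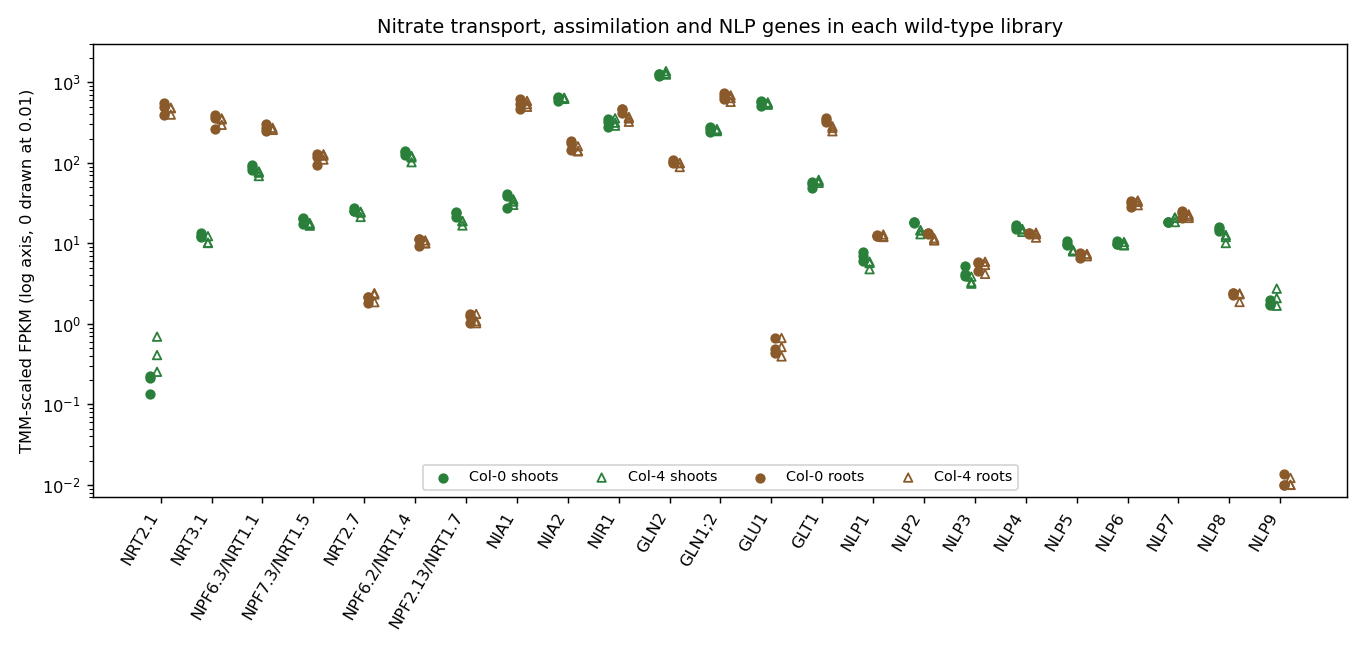
Level of genes of nitrate transport, nitrogen assimilation and the NLP family in each Col-0 and Col-4 library (TMM-scaled FPKM on a log axis, 0 drawn at 0.01). Green marks are shoots and brown marks roots, filled circles are Col-0 and open triangles Col-4. Carriers of uptake lie higher in roots, NIA1 and NIA2 change places between the organs, and most NLP genes lie close together.

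Genes of nitrogen assimilation divided between the organs. Of 22 genes tested, 4 were beyond 2-fold higher in shoots and 10 higher in roots, and on library totals 4 and 16. Their summed level was 3500 to 3800 in shoots and 3020 to 3560 in roots on the TMM scale, ranges that overlapped, while their share of all counts was 0.726 to 0.787% and 1.08 to 1.2%. NIA2, the nitrate reductase that prevails in leaves, stood at 653, 648 and 588 in shoots and 177, 145 and 188 in roots (log2 1.89 ± 0.11), while NIA1 stood at 39, 41.4 and 27.2 and 625, 468 and 532 (log2 -3.91 ± 0.19). Within a library NIA2 held 94.6% ± 0.84 of the summed level of both in shoots and 23.9% ± 2 in roots (SD, n = 3), a share that does not depend on scaling between libraries. NIR1, the single nitrite reductase, stood at 347, 325 and 283 in shoots and 471, 422 and 466 in roots. Its organs did not overlap but were close (log2 -0.51 ± 0.12). UPM1, which makes the sirohaem of nitrite reductase, was lower in shoots (log2 -2.16 ± 0.14).

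Ammonium is then built into glutamine and glutamate. GLN2, the plastid glutamine synthetase, stood at 1280, 1260 and 1200 in shoots and 109, 100 and 103 in roots (log2 3.58 ± 0.07), and the cytosolic forms GLN1;1, GLN1;2 and GLN1;3 were beyond 2-fold higher in roots (log2 -1.6 ± 0.09, -1.36 ± 0.09 and -1.19 ± 0.07). GLN1;2 was the most abundant form in roots, at 264 ± 18 in shoots and 679 ± 63 in roots. GLU1, the ferredoxin-dependent glutamate synthase of leaves, stood at 566, 582 and 507 in shoots and 0.492, 0.441 and 0.66 in roots (log2 10.02 ± 0.15). The NADH-dependent GLT1 stood at 58, 55 and 48.1 and 343, 324 and 361 (log2 -2.67 ± 0.1), and GLU2 had a log2 value of -2 ± 0.07. Among asparagine synthetases ASN2 was higher in shoots (2.73 ± 0.1) and ASN1 higher in roots (-1.78 ± 0.34). The glutamate dehydrogenase GDH2 and the cytosolic aspartate aminotransferase ASP2 were higher in roots (-2.21 ± 0.11 and -1.89 ± 0.07), whereas the chloroplast aminotransferase ASP5 was called higher in shoots on the TMM scale (0.72 ± 0.05) and stood at 0 on library totals, where it was not called.

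Of 6 ammonium and urea carriers tested, AMT1;3, a root uptake carrier, differed most, at 0.0695, 0.0544 and 0.036 in shoots and 104, 75.5 and 97.9 in roots (log2 -10.62 ± 0.3). AMT1;4, known from pollen, stood at 1.16, 1.33 and 1.28 in shoots and at 0 in each of the 3 libraries of roots. AMT1;2 was called higher in shoots but not beyond 2-fold (log2 0.9 ± 0.15), as was the urea carrier DUR3 (0.98 ± 0.14), and neither call held on library totals (0.18 and 0.26). AMT1;1 held 0 or 1 count in each library, and 81.1% of its length is overlapped by an annotated non-coding gene, so its level cannot be read from this table.

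The electron donors of these reactions divided cleanly. Among ferredoxins, the small iron-sulfur proteins that carry electrons in plastids, FD2 stood at 2970, 2670 and 2440 in shoots and 7.75, 6.97 and 10.1 in roots (log2 8.34 ± 0.15), and FD1 had a log2 value of 9.38 ± 0.16. FD3, the form of non-green plastids, stood at 14.5, 12.4 and 13.2 in shoots and 299, 269 and 305 in roots (log2 -4.44 ± 0.09), and it held 96.9% ± 0.46 of the summed ferredoxin level in roots against 0.403% ± 0.029 in shoots. FD4 was listed at or near 0 in both organs. Of the reductases between ferredoxin and NADPH, the leaf forms LFNR1 and LFNR2 were higher in shoots (log2 9.98 ± 0.15 and 10.67 ± 0.15) and the root forms RFNR1 and RFNR2 higher in roots (-1.87 ± 0.08 and -4.55 ± 0.11). RFNR2 held 88.7% ± 0.84 of the reductase level in roots, where the leaf forms LFNR1 and LFNR2 held 0.152% ± 0.078 and 0.0466% ± 0.0025.

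The pentose phosphate pathway feeds the root form of this chain, and 5 of its 9 genes were beyond 2-fold higher in roots with 1 higher in shoots, and on library totals 8 and 1. The plastid glucose 6-phosphate dehydrogenases G6PD2 and G6PD3 stood at 14.7 ± 0.68 and 6.76 ± 0.13 in shoots and at 71.7 ± 6.2 and 89.4 ± 11 in roots (log2 -2.29 ± 0.09 and -3.72 ± 0.16). The third plastid form, G6PD1, was the exception, at 78.1, 73.3 and 63.1 in shoots and 0.187, 0.336 and 0.37 in roots (log2 7.92 ± 0.18). The cytosolic G6PD6 was higher in roots (-1.81 ± 0.07), and G6PD5 was lower in shoots but not beyond 2-fold (-0.51 ± 0.08).

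The NLP factors, which bind promoters of nitrate-responsive genes, were spread over both organs. NLP2 stood at 18.2, 17.7 and 18.5 in shoots and 13.3, 13 and 13.5 in roots, and NLP7 at 18.4, 18.4 and 18.2 and 23.6, 20.5 and 25.4. On the TMM scale the difference was within 2-fold for both (log2 0.45 ± 0.09 and -0.34 ± 0.1). The shift of the median by -0.72 on library totals carries NLP7 further toward roots, so its place within 2-fold depends on the scale. The value of NLP2 turned to -0.27 on library totals. NLP4 and NLP5 were called higher in shoots (0.28 ± 0.08 and 0.46 ± 0.09) and likewise turned to -0.44 and -0.25. NLP1 was called lower in shoots (-0.84 ± 0.1), and NLP3 did not pass (-0.29 ± 0.16, adjusted p = 0.103). Beyond 2-fold NLP6 was higher in roots, at 9.94, 9.86 and 10.7 in shoots and 33.5, 28.2 and 31.9 in roots (log2 -1.62 ± 0.08), and NLP8, a regulator of nitrate-promoted germination, higher in shoots, at 14.1, 15.9 and 15.2 and 2.42, 2.26 and 2.43 (log2 2.67 ± 0.11). NLP9 stood at 1.72, 1.77 and 2 in shoots and 0, 0.0136 and 0 in roots, with 1 count in the root libraries. Within the family's summed level NLP6 rose from 10.1% ± 0.23 in shoots to 28.8% ± 0.91 in roots as the largest member there, while NLP7 held 18.2% ± 0.82 and 21.4% ± 1.2 and NLP2 18% ± 0.63 and 12.3% ± 0.59.

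In the whole list of nitrate signalling, the NLP genes included, 10 of 29 tested were beyond 2-fold higher in roots and 3 in shoots, and on library totals 15 and 2. HRS1, a repressor of phosphate and nitrate responses in roots, stood at 0.0674, 0.158 and 0.0524 in shoots and 95.7, 70.4 and 83.2 in roots (log2 -9.72 ± 0.25). ANR1, a MADS factor of lateral root growth, stood at 0.0812, 0.238 and 0.126 and 83.2, 55.4 and 68.8 (-8.84 ± 0.31), and the bZIP factor TGA1 at 8.4, 8.98 and 8.37 and 204, 169 and 186 (-4.44 ± 0.09). LBD38 and LBD39, which repress nitrogen genes, were higher in roots (-1.67 ± 0.09 and -1.65 ± 0.09). BT2, a BTB scaffold protein that represses nitrate uptake genes, stood at 0.0846, 0.124 and 0.132 in shoots and 15.8, 11.2 and 13.6 in roots (-6.9 ± 0.42). The 3 on the shoot side were NLP8, NLP9 and the gene AT3G60320. CIPK23, the kinase that acts on NRT1.1, was lower in shoots but not beyond 2-fold (-1.13 ± 0.1).

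The exchange of paralogs was followed in 15 pairs of a leaf form and a root form of one enzyme. In 9 pairs both members were beyond 2-fold in opposite directions, and in 15 of 15 the share of the leaf form within the pair was higher in every shoot library than in every root library. The pairs were chosen from what is known of their organs, so this describes their degree and is no independent count. GOX1 held 100% ± 0.0015 of its pair with GOX3 in shoots and 0.256% ± 0.066 in roots. For GLU1 with GLU2 the shares of GLU1 were 96.6% ± 0.18 and 0.694% ± 0.16, and for G6PD1 with G6PD3 those of G6PD1 were 91.3% ± 0.82 and 0.333% ± 0.11. PPC2 held 98.8% ± 0.18 of its pair with PPC3 in shoots and 16.1% ± 1.4 in roots. In other pairs the leaf form prevailed in both organs, as with the malic enzyme NADP-ME4 over NADP-ME1 (99.9% ± 0.065 and 99.6% ± 0.085) and HEMA1 over HEMA2 (98.6% ± 0.065 and 62.9% ± 1). GPAT4, which makes cutin, held 99.9% ± 0.11 of its pair with the suberin gene GPAT5 in shoots and 62% ± 0.9 in roots. For APL1 and APL3, large subunits of the starch enzyme ADP-glucose pyrophosphorylase, both members were higher in shoots (log2 5.67 ± 0.14 and 3.71 ± 0.14).

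**Figure D4:**
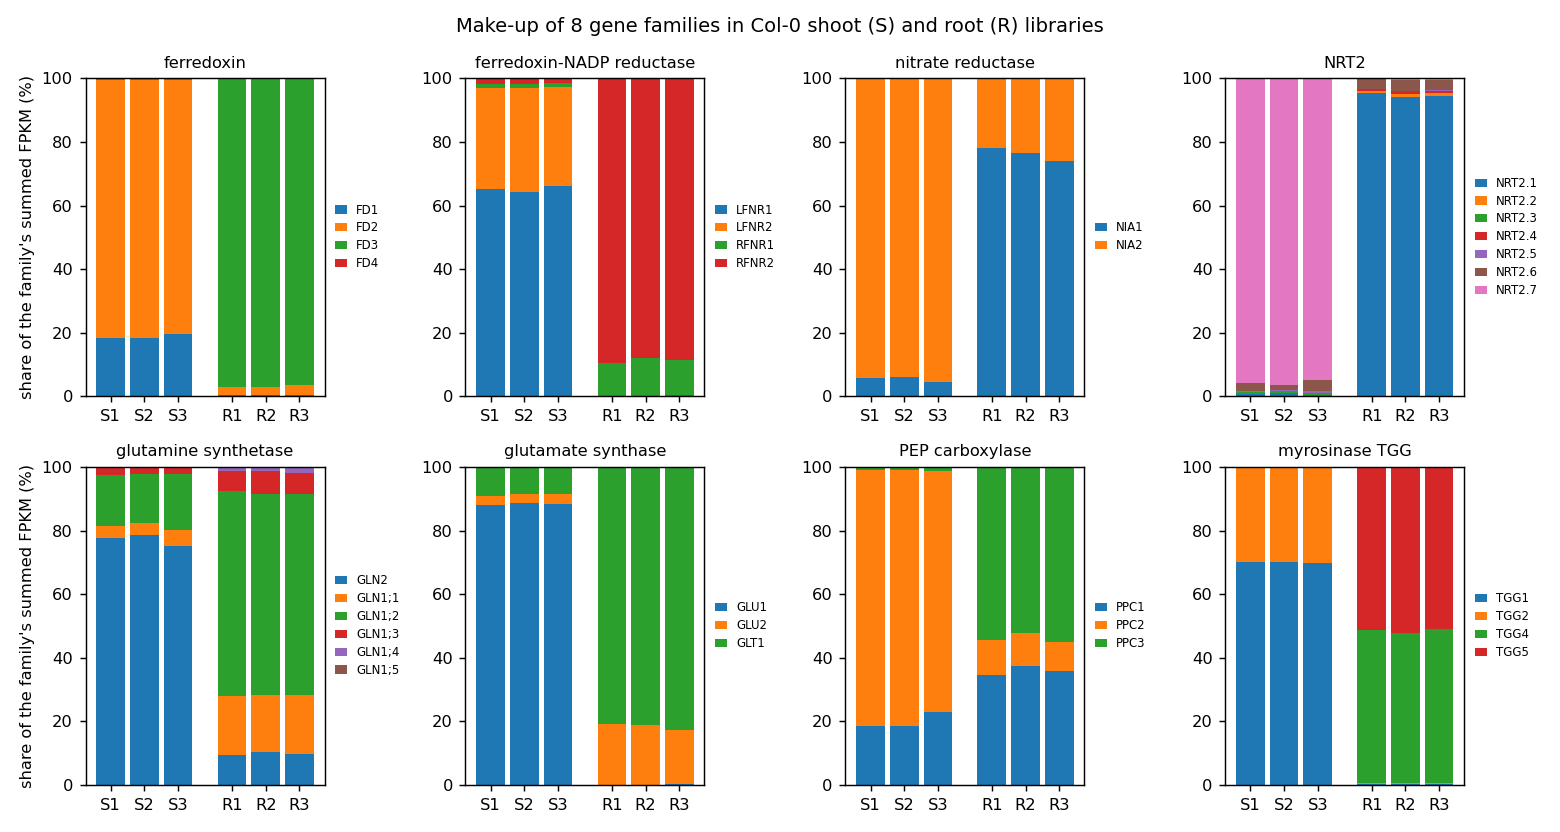
Share of each member in the summed FPKM of its gene family (percent), in Col-0 shoot libraries S1 to S3 and root libraries R1 to R3. Each bar is 1 library and each colour 1 gene. These families were chosen for the plot because their leading member differs between the organs, for example FD2 (80.9% ± 0.82) and FD3 (96.9% ± 0.46), or NRT2.7 (95.9% ± 0.8) and NRT2.1 (94.8% ± 0.56). Among families not plotted, ASN2 led the asparagine synthetases in both organs (91% ± 0.56 and 40.8% ± 3.5). PIP2;1 led the PIP aquaporins in shoots (30.8% ± 0.86). In roots PIP2;1, PIP1;2 and PIP2;2 lay close together (20.2% ± 0.22, 20% ± 1 and 19.9% ± 1.3), and PIP2;1 was the largest in no single root library.

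Of 38 genes of sucrose, starch and sugar transport 26 were beyond 2-fold higher in shoots and 8 in roots. GBSS1, which makes amylose, stood at 493, 465 and 614 in shoots and 0.909, 0.896 and 1.51 in roots (log2 8.89 ± 0.22), and the chloroplast triose phosphate exporter TPT at 1220, 1150 and 1120 and 5.06, 5.25 and 8.44 (7.54 ± 0.14). The phloem loaders SUC2 and SWEET11 were higher in shoots (log2 3.2 ± 0.17 and 5.6 ± 0.17). Of the 6 sucrose synthases, which cleave sucrose, 4 were beyond 2-fold higher in roots. SUS4 stood at 1.74, 1.23 and 0.676 in shoots and 373, 363 and 371 in roots (log2 -8.18 ± 0.29), and SUS1 at 28.8 ± 2.1 and 207 ± 16 (-2.85 ± 0.1), and SUS5 and SUS6 had log2 values of -1.73 ± 0.19 and -1.38 ± 0.14. SUS3 was beyond 2-fold higher in shoots, at 2.45 ± 0.2 against 0.467 ± 0.12 (2.38 ± 0.26), and SUS2 did not pass (-0.12 ± 0.48, adjusted p = 0.82). The invertases CINV1 and CWINV1 and the hexose carrier STP1 were also higher in roots (-2.07 ± 0.08, -2.69 ± 0.1 and -1.84 ± 0.1).

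Of 11 genes of organic acid metabolism 2 were beyond 2-fold higher in shoots and 3 in roots, and on library totals 2 and 7. On the TMM scale these counts were near the shares over all genes tested (19.6% in shoots and 21.1% in roots). FUM2, the cytosolic fumarase of leaves, stood at 334, 283 and 303 in shoots and 1.56, 1.4 and 0.734 in roots (log2 7.95 ± 0.19), while the mitochondrial FUM1 was within 2-fold (-0.72 ± 0.06). The PEP carboxylases PPC2 and PPC3 differed by 3.21 ± 0.1 and -5.51 ± 0.14, and PPC1 by -0.58 ± 0.06.

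Fermentation and low-oxygen genes were much higher in roots. Of 12 hypoxia genes 9 were beyond 2-fold higher in roots and 1 in shoots, with a median log2 of -5.92. ADH1, the alcohol dehydrogenase, stood at 8.24, 6.32 and 5.84 in shoots and 1130, 1090 and 1070 in roots (log2 -7.32 ± 0.2), and the pyruvate decarboxylase PDC1 at 0.996, 0.954 and 0.601 and 357, 317 and 377 (-8.64 ± 0.28). PCO1 and PCO2, which sense oxygen by oxidising group VII ERF factors, had log2 values of -5.82 ± 0.18 and -7.54 ± 0.23. The haemoglobin genes parted: GLB1, induced by low oxygen, stood at 5.34 ± 1.6 in shoots and 424 ± 41 in roots (-6.3 ± 0.2), and GLB2 at 92.5 ± 1.5 and 11.5 ± 0.96 (3.01 ± 0.1). Of the constitutive factors RAP2.12 was higher in roots (-1.62 ± 0.09), and RAP2.3 did not pass (log2 -0.56 ± 0.33, adjusted p = 0.125).

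Defence chemistry differed by family member. Among 21 genes of glucosinolate synthesis and transport 4 were beyond 2-fold higher in shoots and 5 in roots, and on library totals 2 and 8. Over all genes tested 19.6% were beyond 2-fold higher in shoots and 21.1% in roots, so the list as a whole lay near the background. CYP79F1, which starts short-chain aliphatic glucosinolates, stood at 182, 193 and 187 in shoots and 0.0461, 0.0715 and 0 in roots, and its neighbour CYP79F2, specific to long chains, at 4.35, 5.6 and 3.82 and 87, 76.6 and 81.8 (log2 -4.15 ± 0.12). The factor MYB29 was higher in shoots (log2 9.13 ± 0.2). The chain elongation enzyme MAM3 stood at 10 ± 0.42 in shoots and 303 ± 27 in roots (-4.92 ± 0.11), and the indole regulator MYB122 at 0.158 ± 0.091 and 3.28 ± 1 (-4.41 ± 0.38). The other 12 were not beyond 2-fold, among them the core enzyme SUR1 (0.82 ± 0.06, 0.1 and not called on library totals). CYP79F1 and CYP79F2 are close copies, and their split is uncertain.

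Of 18 genes of glucosinolate breakdown 7 were beyond 2-fold higher in shoots and 10 in roots. The myrosinases TGG1 and TGG2 stood at 2060 ± 45 and 882 ± 26 in shoots and at 0.457 ± 0.15 and 0.407 ± 0.12 in roots (log2 12.11 ± 0.32 and 11.06 ± 0.29). TGG4 and TGG5 were listed at 0 in each of the 3 libraries of shoots and stood at 68, 53.1 and 76 and at 72.6, 58.7 and 79.5 in roots (at least 2140-fold and at least 2410-fold higher). The modifier ESM1 stood at 2640, 2640 and 2540 in shoots and 0.764, 0.748 and 0.766 in roots (log2 11.74 ± 0.15). PYK10, the beta-glucosidase of endoplasmic reticulum bodies, stood at 18.3, 15.7 and 19.6 in shoots and 809, 583 and 727 in roots (-5.31 ± 0.17), its relative BGLU21 at 274, 273 and 261 in roots with 0, 0.113 and 0 in shoots, and BGLU18, known from wounded leaves, was higher in shoots (5.12 ± 0.39).

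Of 11 genes for root triterpenes and coumarins 9 were beyond 2-fold higher in roots and none higher in shoots. THAS1, the thalianol synthase, stood at 0, 0 and 0.0274 in shoots and 10.9, 6.54 and 6.97 in roots, and F6'H1, which starts the coumarins that help take up iron, at 1.9, 1.37 and 3.86 and 123, 74.9 and 124 (log2 -5.57 ± 0.24). Flavonoid and anthocyanin genes were the reverse, with 11 of 12 beyond 2-fold higher in shoots. CHS, the entry enzyme, stood at 405, 453 and 389 in shoots and 0.083, 0.193 and 0.61 in roots (log2 10.46 ± 0.35), and the anthocyanin regulator PAP1 at 41.2, 46.4 and 45.3 and 0.0956, 0 and 0.243 (8.53 ± 0.24). MYB12, a flavonol regulator, was called but not beyond 2-fold (1.75 ± 0.63), and its call was lost without Col-0 root replicate 2 (edgeR adjusted p = 0.0523) and on library totals. F3H, a core enzyme of the pathway, was listed at 0 in each of the 6 libraries, and 94.5% of its length is overlapped by an annotated non-coding gene.

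Defence outputs were seen in shoots, where 8 of 13 genes of salicylate and jasmonate were beyond 2-fold higher. PR1, the salicylate marker, stood at 63.4, 62.9 and 111 in shoots and at 0 in each of the 3 libraries of roots, PR2 at 127, 158 and 212 and 0.648, 0.241 and 0.706 (log2 8.25 ± 0.38), and LOX2, a chloroplast lipoxygenase of jasmonate synthesis, at 379, 345 and 450 and 0.0228, 0 and 0.0497. Shoot replicate 3 was the highest in each of them. PDF1.2, a jasmonate and ethylene marker, spread widely, at 8.31, 26.7 and 70.6 in shoots and 0 in each of the 3 libraries in roots. The upstream regulator PAD4 did not pass the test (log2 -0.17 ± 0.12, adjusted p = 0.204).

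Cytokinin genes leaned to the root, 11 of 21 beyond 2-fold higher there and 2 in shoots. The synthesis gene IPT5 stood at 0.494, 0.58 and 0.486 in shoots and 24.4, 24.1 and 24 in roots (log2 -5.53 ± 0.26), the trans-hydroxylase CYP735A2 at 0.478, 0.132 and 0.131 and 22, 14 and 15.7 (-5.99 ± 0.31), and ABCG14, which exports cytokinin toward the shoot, at 3.93, 2.98 and 3.94 and 60.8, 47.3 and 56.9 (-3.93 ± 0.12). IPT3, the nitrate-responsive synthesis gene, was within 2-fold (-0.4 ± 0.13). Of the response regulators ARR3 was listed at 0 in each of the 3 libraries of shoots and at 14.4, 13.6 and 13.2 in roots (at least 313-fold higher), while ARR15 and ARR16 were higher in shoots (2.23 ± 0.17 and 2.77 ± 0.26). Among auxin exporters other than PIN2, 4 of 6 were beyond 2-fold higher in shoots, led by PIN5 and PIN4 (3.96 ± 0.37 and 2.18 ± 0.1). On library totals 2 of the 7 tested were beyond 2-fold higher in shoots and 2 in roots.

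Of 23 aquaporins 9 were beyond 2-fold higher in roots and 3 in shoots. TIP2;3, a tonoplast channel, was listed at 0 in each of the 3 libraries of shoots and stood at 138, 118 and 106 in roots (at least 2620-fold higher), and the plasma membrane channel PIP2;4 at 2.55, 3.1 and 2.08 and 158, 104 and 122 (log2 -5.62 ± 0.25). PIP2;6 was its counterpart, at 344, 326 and 348 in shoots and 5.27, 4.94 and 5.95 in roots (5.98 ± 0.12). The abundant PIP1;2 and PIP2;1 were close between the organs (0.27 ± 0.08 and 0.42 ± 0.08) and both turned below 0 on library totals (-0.45 and -0.29). PIP2;2 and PIP2;3 are close copies and their split is uncertain.

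Clock genes lay on both sides. Of 15 tested, 7 were beyond 2-fold higher in shoots and 4 in roots, and on library totals 2 and 6. The morning genes CCA1 and LHY stood at 146 ± 5.1 and 130 ± 12 in shoots and at 38.8 ± 6.5 and 43.7 ± 5 in roots (log2 1.91 ± 0.17 and 1.57 ± 0.18). The evening genes TOC1, PRR5 and ELF3 were lower in shoots (-1.65 ± 0.11, -3.54 ± 0.34 and -2.38 ± 0.14). The hour of harvest of each library is not given in the labels used here. Of 8 photoreceptor genes and their factors 5 were beyond 2-fold higher in shoots and 1 in roots. The blue light receptors PHOT1 and PHOT2 and the factor PIF4 were higher in shoots (4.77 ± 0.1, 6.8 ± 0.1 and 7.93 ± 0.15), whereas PHYA, a phytochrome, was beyond 2-fold higher in roots (-1.13 ± 0.07).

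Of 9 flowering and MADS genes tested 2 were beyond 2-fold higher in shoots and 5 in roots, and on library totals 1 and 6. The root MADS factors AGL14 and AGL17 were higher in roots (-7.01 ± 0.2 and -6.81 ± 0.4) and AGL21 and AGL12 were listed at 0 in each of the 3 libraries of shoots (at least 271-fold and at least 526-fold higher in roots). SVP, a repressor of flowering, was higher in shoots at 109 ± 3.8 against 39.2 ± 3.6 (1.48 ± 0.07), as was SPL9, which marks the adult phase (2.51 ± 0.18), and FT, which moves to the meristem to start flowering, had 0 or 1 count in each library. Of 10 cell division genes 7 were beyond 2-fold higher in roots, among them CDKB2;1 at 9.45, 6.14 and 5.68 in shoots and 22.9, 23.7 and 26 in roots (-1.75 ± 0.13).

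Reference genes lay near 0 on the TMM scale, with 8 of 9 not beyond 2-fold and a median log2 of -0.02 (-0.74 on library totals). PP2AA3 stood at 31.1, 32.5 and 31.6 in shoots and 32.7, 33.5 and 30.1 in roots (log2 -0.02 ± 0.06), and UBC21 at 24.1 ± 0.96 and 23.7 ± 3.2 (0.02 ± 0.1). ACT2, ACT7 and MON1 (the SAND reference) had log2 values of -0.25 ± 0.07, 0.12 ± 0.05 and 0.33 ± 0.05, and GAPC2 had -0.78 ± 0.06. UBQ10 was the exception, at 1500 ± 110 in shoots and 682 ± 43 in roots (1.13 ± 0.07). At an adjusted p under 0.05, 3 of the 9 were called higher and 2 lower in shoots. On library totals UBQ10 lost its call beyond 2-fold, and of the 9 genes 0 were beyond 2-fold higher in shoots and 1 in roots. UBC21, ACT7 and MON1 turned below 0 on library totals (-0.69, -0.6 and -0.39). The other 2 genes, of a translation elongation factor and a TIP41-like protein, had log2 values of -0.11 ± 0.08 and -0.14 ± 0.07. Seed storage genes, which neither organ should hold, did not reach the count needed for a test.

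Ranked by level among genes with a symbol, the 12 most abundant of those higher in shoots were small subunits of Rubisco, Rubisco activase, and proteins of the antennae and photosystem II. The 12 most abundant of those higher in roots were more varied. DR4, a drought-repressed protease inhibitor relative, led at 117, 53.5 and 94 in shoots and 3170, 2270 and 2830 in roots (log2 -4.97 ± 0.37), followed by the glycine-rich GRP9 (-5.55 ± 0.3), ADH1, the aquaporins PIP2;2 and TIP1;1 (-2.49 ± 0.11 and -1.24 ± 0.12), the pectin methylesterase PMEPCRA (-4.35 ± 0.08) and PYK10. GLN1;2, the latex-like protein MLP34 at 0, 0 and 0.0545 in shoots and 819, 565 and 656 in roots, GASA4 (-3.11 ± 0.07), the cell wall protein AGP31 (-3.49 ± 0.17) and the RNA-binding CCR1 (-1.52 ± 0.08) completed them. TIP1;1, at 423, 402 and 396 and 1120, 810 and 945, was the least uneven of the 12.

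Ranked by fold, with at least 20 counts in 1e+06 (counts scaled to library size) in the higher organ, several genes were at 0 in the other. On the shoot side CA1, a carbonic anhydrase, stood at 3000, 2880 and 2660 in shoots and 0.039, 0 and 0.0212 in roots, and the aldolase FBA5 at 261 ± 22 with 0 in each of the 3 libraries of roots (at least 11600-fold higher). The peptide gene RGF9 stood at 318, 347 and 381 in shoots and at 0 in each of the 3 libraries of roots (at least 6190-fold higher), although its family is named for root meristem growth. On the root side the sulfate carrier SULTR1;1 (at least 970-fold higher), the microtubule protein MAP18 (at least 1660-fold), the MADS factor AGL79 (at least 1710-fold) and the arabinogalactan protein AGP30 (at least 987-fold) were at 0 in the shoot libraries. MLP329 ranked first on that side (at least 4040-fold higher), and not all genes of this ranking are named.

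The organs of Col-4 were compared in the same fit, in libraries of their own. There 8786 genes (40.8%) were beyond 2-fold, 4150 (19.3%) higher in shoots and 4636 (21.5%) in roots. In both wild types 8284 genes were beyond 2-fold in the same direction, which is 94.4% of the Col-0 and 94.3% of the Col-4 genes, and 0 were so in opposite directions. The median absolute difference of the log2 values was 0.14. Photosystem genes had a median log2 of 10.46, root hair genes -9.37 and nitrate transport genes -3.13. NRT2.1 stood at 0.41, 0.254 and 0.694 in Col-4 shoots and 484, 477 and 398 in Col-4 roots (log2 -9.94 ± 0.29), NIA1 at 30.1, 35.3 and 33.1 and 536, 589 and 497 (-4.04 ± 0.2), and NIA2 at 623, 645 and 626 and 161, 139 and 141 (2.1 ± 0.11). In the fit of all 6 genotypes 3599 genes were beyond 2-fold higher in shoots and 3746 in roots in each genotype.

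The difference between the organ contrasts of Col-0 and Col-4 was tested itself. It was called for 5 of 21554 genes (0.0232%), with an unadjusted p under 0.05 for 1323 (6.14%). One of them is a gene of nitrate signalling: BT1, a scaffold protein with a BTB domain, stood at 18.3, 20.9 and 24.5 in Col-0 shoots and 29.9, 20.7 and 22.1 in Col-0 roots, and at 15, 14.2 and 17.5 and 34.9, 47.7 and 36.1 in Col-4. The organs overlapped in Col-0 (log2 -0.2 ± 0.13, not called), while in Col-4 the roots stood higher (-1.35 ± 0.13). The difference of the contrasts was 1.15 ± 0.19 (edgeR quasi-likelihood adjusted p = 0.00835). With 1 of the 12 libraries left out the number of such genes lay between 2 and 8.

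**Figure D5:**
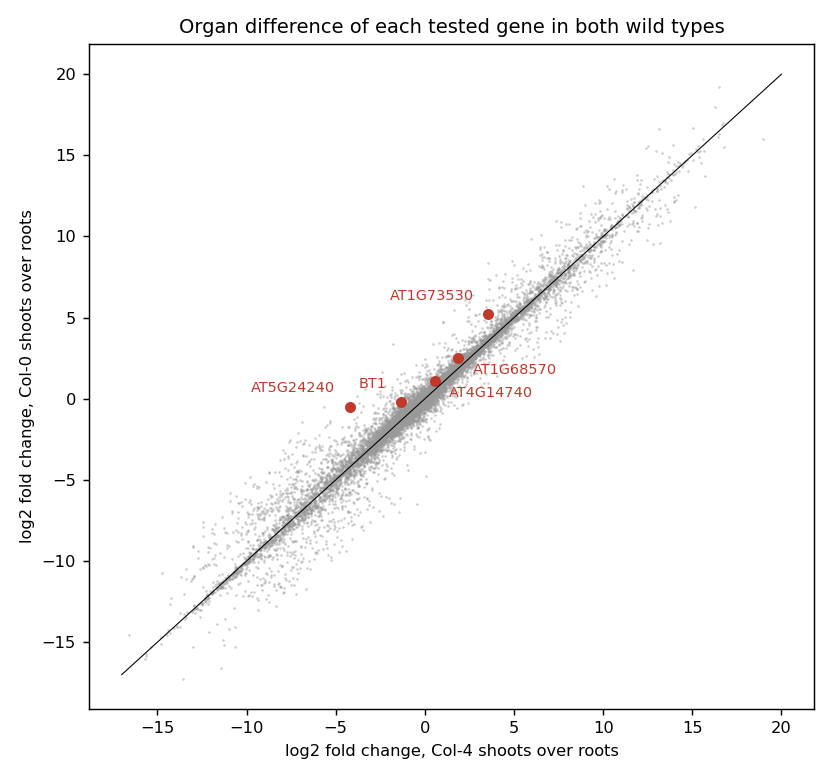
Log2 fold change of shoots over roots for each tested gene in Col-4 (x axis) and Col-0 (y axis), on the TMM scale of one fit, with the line of equal values. Red points are the 5 genes whose organ difference was called different between the wild types. AT5G24240 lies at -4.22 in Col-4 and -0.48 in Col-0.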

How the data were processed

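RNA of whole rosettes and roots was sequenced, and read counts and FPKM per gene were deposited by the authors in 1 table each. Per the submitters' processing notes HISAT2, HTSeq and TAIR10 were used, and their versions and the strand setting are not given in the sources used here. The deposited counts are whole numbers with no normalization. The deposited FPKM are per 1e+06 fragments of the library and kilobase of the gene, by the deposited table's name. Columns were matched to samples by name, and 0 columns were left unmatched. Features under the edgeR filter (minimum count 10, minimum total 15) were left out, which kept 21554 of 34218. TMM factors were fitted, and edgeR 4.0.16 in R 4.3.3 gave quasi-likelihood tests (robust, 12 groups, 36 libraries, 24 residual degrees of freedom) and glmTreat tests at a log2 fold change of 1, with Benjamini-Hochberg adjustment at 0.05. Counts set the depth behind each value, and intervals and floors cover counting error only. The fold of a gene at 0 in an organ was set against 3 counts over that organ's 3 libraries.

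The labels call the replicates biological without naming plants, so p-values measure the spread between these samples. No pair of replicates agreed within sampling noise, so none was counted as a duplicate. DESeq2 1.42.0 and limma 3.58.1 (on log2 of FPKM plus 1 or 0.1, with a mean of at least 0.5 FPKM) served as alternatives, beside other scalings, filters, sample sets and left-out libraries. The test was tested on simulated data.

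The 35 gene lists, the pairs and the families were written from general knowledge, and they and the comparison were chosen with earlier results of these data known. Of 550 listed genes 549 are in the table. Genes named were drawn from the 12 most abundant and the 12 with the largest fold in each direction, of which not all are named. Nitrate genes, pair members, reference genes, up to 4 per list and direction, and those against their list were added. Examples within a list that lie outside this rule were chosen after their values were seen. Symbols come from the RefSeq annotation of TAIR10.1, and no coordinates or sequences were taken from it.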

Additional observations from a re-analysis of the deposited data

Results flagged for a closer look

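The organ difference was called different between Col-0 and Col-4 for 5 genes, by a test of the difference itself in the fit of all 36 libraries. AT5G24240 stood at 18.6, 20.3 and 24.3 in Col-0 shoots and 30.4, 26.9 and 30.8 in Col-0 roots, and at 0.0998, 0.0516 and 0.188 and 2.32, 2.5 and 1.76 in Col-4. Its log2 values were -0.48 in Col-0 and -4.22 in Col-4, a difference of 3.74 ± 0.57 (edgeR quasi-likelihood adjusted p = 0.00835), and over 21 alternative settings the adjusted p ran from 2.36e-07 to 0.571 with 17 calls. AT1G73530 stood at 54.1, 57.6 and 50.9 in Col-0 shoots and 1.41, 1.41 and 1.54 in Col-0 roots, and at 19.1, 26.5 and 21 and 1.93, 1.98 and 1.76 in Col-4. Its log2 values were 5.22 and 3.55, a difference of 1.67 ± 0.28 (edgeR adjusted p = 0.00835), and the alternatives gave 3.76e-06 to 0.0601 with 20 calls.

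BT1, described above, differed by 1.15 ± 0.19 (edgeR adjusted p = 0.00835), and the alternatives gave 2.53e-05 to 0.321 with 19 calls. AT1G68570 had log2 values of 2.53 in Col-0 and 1.89 in Col-4, a difference of 0.64 ± 0.12 (edgeR adjusted p = 0.0268), and AT4G14740 of 1.11 and 0.56, a difference of 0.55 ± 0.11 (edgeR adjusted p = 0.038). Each of the latter was called in 11 of 21 alternatives, with an adjusted p from 0.00108 to 0.175 and from 0.0034 to 0.321. In each of the 5 the direction of the difference can be read from the 4 group levels, and no explanation was tested.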

How the results depend on the processing

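Scale mattered most. On library totals without TMM 4642 genes were called higher and 14424 lower in shoots, and limma on deposited FPKM, which carry the same scale, gave 4641 and 14387 (pseudocount 1), 4642 and 14391 (pseudocount 0.1) and 4840 and 14852 (pseudocount 1, no filter). Beyond 2-fold, library totals gave 7659 lower, limma with pseudocount 0.1 gave 6819 lower, and limma with pseudocount 1 gave 2584 higher, or 2572 with no filter. For named genes just above 0 the log2 value turned negative on library totals and in limma with pseudocount 1 (with and without the filter) or 0.1: -0.60 for ACT7, 0 for ASP5, -0.06 to -0.07 for HMA2, -0.27, -0.25 and -0.26 for NLP2, -0.44, -0.41 and -0.43 for NLP4, -0.25 and -0.22 for NLP5, -0.19, -0.17 and -0.18 for OST1, -0.45 for PIP1;2, -0.29 for PIP2;1, -0.39, -0.37 and -0.38 for MON1 (SAND), -0.11 and -0.10 for SCR, -0.69, -0.66 and -0.68 for UBC21, and -0.01 for SLAH3 on library totals alone. The cause was not tested beyond the scale itself. Of 3537 values of 236 named genes under 15 alternatives 3394 kept direction and call. Calls of AMT1;2, DUR3, SUR1 and MYB12 were lost on library totals, and those of CER4, PHV, STM, NLP3, RAP2.3, PAD4, BT1, KCS2, PP2AA3 and the 2 reference genes without a symbol were gained, all lower in shoots.

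Leaving out 1 library gave 16315 to 16503 genes called in Col-0 and 8594 to 8710 beyond 2-fold. It changed the sign of uncalled values near 0: ESB1 ran from -0.90 to 0.01, KCS2 from -0.44 to 0.27, PP2AA3 from -0.06 to 0.01, SUS2 from -0.77 to 0.25 and UBC21 from -0.08 to 0.11. Calls were lost for ACT7 without root replicate 3 or shoot replicate 2, for IPT3 without root replicate 1, for MYB12 without root replicate 2 and for the Col-0 value of AT5G24240 without root replicates 1 or 3 or shoot replicates 1 or 2. Calls just under the threshold were gained for NLP3, PHV, PAD4, BT1 and both of those reference genes. The count of genes whose organ difference differed between the wild types moved from 5 to 2 (only the groups compared), 11 (DESeq2), 10 (limma, pseudocount 1) and 12 (limma, no filter), and to between 2 and 8 with 1 library left out, with 3 without Col-0 shoot replicate 3 or Col-4 root replicates 2 or 3, 2 without Col-4 shoot replicates 1 or 2, and 8 without Col-4 shoot replicate 3. Whether same-numbered shoot and root libraries came from the same plants is not given in the labels. As deviations from their group means, they correlated at 0.05, 0.09 and 0.08 in Col-0 and -0.01, -0.01 and -0.02 in Col-4. These values cannot settle the pairing, since shared plants need not give shared deviations in different organs. With the replicate block 16740 genes were called in Col-0 and 8718 beyond 2-fold, and the count of differences between the wild types was 2. Depth limits genes near the floor, such as NLP9 or SLAC1 in roots.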
